A study of Mus musculus with 2 samples.

Results

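Skeletal muscle precursors are cells committed to becoming muscle fibres. They were followed here in single-cell RNA counts from mouse embryonic brain tissue, in 1 library from embryos that had neural tube defects (NTD) and 1 from control embryos. A barcode, the tag of 1 droplet, was called a precursor when it held at least 1 UMI (1 counted RNA molecule) of at least 2 of 8 muscle genes: Myod1, Myf5, Myog, Msc, Chrna1, Chrng, Neb and Myh3. At least 1 of the genes held had to be Myod1, Myf5, Myog or Neb, and the barcode had to hold 0 UMIs of Myh6, Nkx2-5, Epcam and Cdh5, which mark heart muscle, epithelium and endothelium. By this rule 181 of 37628 barcodes were precursors. They were 8 of 19056 barcodes in the NTD library and 173 of 18572 in the control library.

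The NTD embryos came from dams kept on a low-folate diet and given MTX (methotrexate, which blocks folate metabolism) at 1.5 mg/kg into the peritoneum on gestational day 7.5. Per the labels they had open or malformed hindbrain or spine and were small and delayed. The control embryos came from dams given normal saline and had closed neural tubes. In both groups closure was scored between embryonic days 9.5 and 10.5. The labels used here do not state the control dams' diet, the strain, or which stage, sex and number of embryos went into a library, so a library may pool several. With 1 library per group no test across samples could be made, so every NTD over control difference below compares 2 libraries. Each interval is a 95% interval for counting error only.

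Skeletal muscle forms in steps. Myf5 and Myod1, transcription factors of the basic helix-loop-helix family, commit a progenitor to the muscle lineage, and Myog, a factor of the same family, starts terminal differentiation. Differentiating cells leave the cell cycle, fuse, and switch on the contractile apparatus and the acetylcholine receptor of the nerve-muscle junction. These factors bind E-boxes, short sites of the form CANNTG, in the promoters of their targets. Trunk and limb muscle comes from somites, under Pax3 and Pax7, and head muscle comes from cranial mesoderm, under Tbx1 and related factors. Myogenic factors also switch on the muscle microRNAs miR-206 and miR-133b.

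Both microRNAs lie on chromosome 1 inside the span of the long RNA gene Gm28653 (GRCm38, chr1:20669882-20684298, plus strand), whose level is given below. Their mature sequences from RefSeq (GRCm38.p6) are shown because that gene was higher in the precursors than in the rest of each library. The seed, bases 2 to 8, is in capitals. The miR-206 strand lies at chr1:20679055-20679076 and the miR-133b strand at chr1:20682834-20682855, both on the plus strand, and the seeds differ, so the pair does not form a seed family.
mmu-miR-206-3p: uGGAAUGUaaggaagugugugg
mmu-miR-133b-3p: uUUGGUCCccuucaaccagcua

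The promoters of 3 genes of the rule carry the E-boxes that myogenic factors read, and are shown as the regulatory side of the rule itself. Each is the 250 bases before the gene's start in RefSeq (GRCm38.p6), with every match of CANNTG in capitals. Myog, at chr1:134289754-134290003 on the plus strand, held an E-box 138 and another 12 bases before the start, and the letters TCAGGTT, a MEF3 site, which homeobox proteins bind, 84 bases before it. Chrng, the embryonic gamma subunit of the acetylcholine receptor, at chr1:87205561-87205810 on the plus strand, held 3 E-boxes, and those at 155 and 132 bases had the core CAGCTG. GENCODE M21 starts Chrng 1154 bases upstream of the RefSeq start, so this window lies inside its GENCODE span, and the starts of Myog differ by 15 bases. Chrna1, the alpha subunit, at chr2:73580339-73580588 on the minus strand, also held 3, with the core CAGCTG at 92 and 44 bases.
Myog promoter: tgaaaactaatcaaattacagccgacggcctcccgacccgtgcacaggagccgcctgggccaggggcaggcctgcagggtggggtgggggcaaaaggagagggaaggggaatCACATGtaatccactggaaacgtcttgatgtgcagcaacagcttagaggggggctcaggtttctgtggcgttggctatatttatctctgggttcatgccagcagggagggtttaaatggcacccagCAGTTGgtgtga
Chrng promoter: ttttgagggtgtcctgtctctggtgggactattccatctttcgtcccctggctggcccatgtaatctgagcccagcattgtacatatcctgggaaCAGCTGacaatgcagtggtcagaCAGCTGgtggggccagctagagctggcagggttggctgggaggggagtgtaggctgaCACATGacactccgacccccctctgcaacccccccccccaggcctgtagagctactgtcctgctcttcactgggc
Chrna1 promoter: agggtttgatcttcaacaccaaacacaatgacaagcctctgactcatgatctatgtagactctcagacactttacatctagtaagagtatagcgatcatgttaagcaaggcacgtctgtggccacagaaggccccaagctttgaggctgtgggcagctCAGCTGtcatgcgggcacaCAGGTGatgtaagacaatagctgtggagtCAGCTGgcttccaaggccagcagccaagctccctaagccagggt

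Both strands were searched, and both E-box forms read the same on each. Of 27025 promoters of the same length, 17848 (66.0%) held CANNTG, 3450 (12.8%) held CAGCTG and 943 (3.49%) held TCAGGTT. The second form is a case of the first, so the first count includes the second. These matches describe the letters and say nothing of binding in these cells.

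Precursors made up 0.0420% of barcodes in the NTD library (0.0181 to 0.0827) and 0.932% in the control library (0.798 to 1.08). The difference was -0.890 percentage points (-1.04 to -0.755), and the share was 22.2 times as high in the control library (log2 NTD over control -4.47, -5.71 to -3.46). The same held for barcodes with 3 or more of the 8 genes, 3 in the NTD library and 59 in the control library (log2 -4.33, -6.65 to -2.72). Depth per barcode differed little between the libraries, with a median of 2456 UMIs in the NTD library and 2234 in the control library. When every barcode was thinned to 1500 UMIs, 5 of 19056 NTD barcodes and 86 of 14653 control barcodes met the rule (log2 -4.48, -6.14 to -3.21). The rule was set with results of these libraries known, so this size is a description of them.

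The libraries differed less in the cardiac-like, mesenchyme-like and neuron classes counted here. Cardiac-like barcodes, which held Myh6 or Nkx2-5 with another heart gene, were 133 of the NTD library (0.698%) and 100 of the control library (0.538%). Mesenchyme-like barcodes, defined by Prrx1, Pdgfra, Col1a1 and Twist1, were 1638 of the NTD library (8.60%) and 2835 of the control library (15.3%). Neurons, by at least 3 of 6 neuronal genes, were 7078 in the NTD library (37.1%) and 3883 in the control library (20.9%). The 2 libraries thus held different mixtures of cells, and with 1 library each the mixture and the treatment cannot be told apart.

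**Figure D1:**
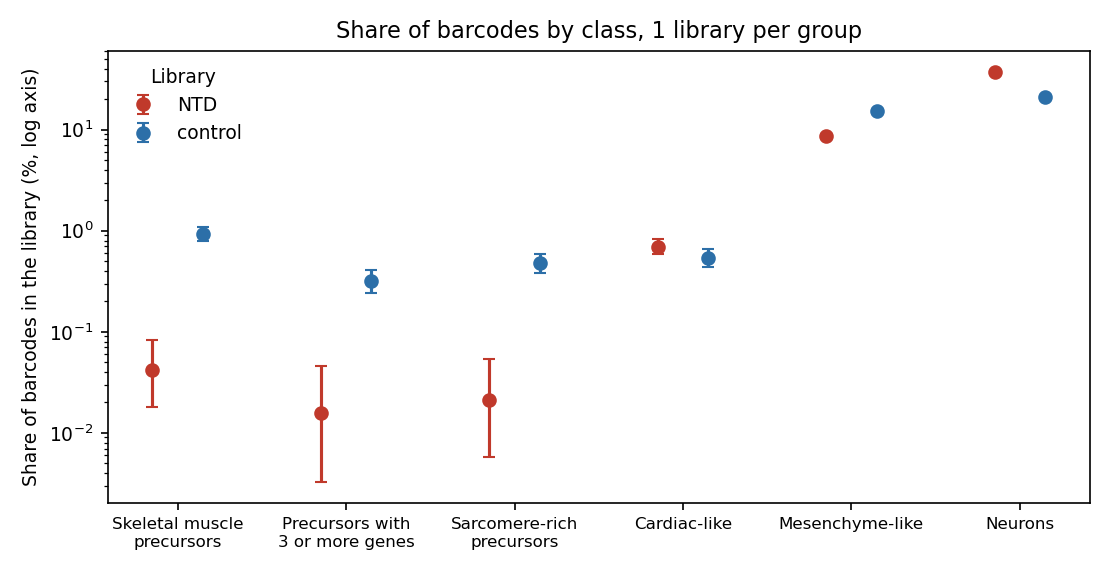
Share of barcodes of each class (y axis, percent of the library, log axis) in the NTD library (red) and the control library (blue), with exact 95% intervals as bars. The 3 precursor classes sit at 0.0157 to 0.0420% in the NTD library and at 0.318 to 0.932% in the control library, while cardiac-like barcodes are at 0.698% in the NTD library and 0.538% in the control library.

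Barcodes of classes that should lack muscle RNA were counted as a background, which may hold free RNA in the droplets as well as doublets. No precursor was found among erythroid barcodes (haemoglobin genes at least 10% of UMIs), at 0 of 30 in the NTD library and 0 of 19 in the control library, which allows shares of up to 11.6% in the NTD library and 17.6% in the control library (Clopper-Pearson). Their median depth was 2572.5 UMIs in the NTD library and 1986 in the control library. Neurons met the rule in 1 of 7078 NTD barcodes and in 44 of 3883 control barcodes (1.13%), against 0.932% of all control barcodes. Those 44 are among the 173 control precursors, and the source of their muscle RNA was not tested. None of the 105 cell barcodes that the libraries shared was a precursor.

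Doublets, droplets with 2 cells, were kept. Scrublet called 0 of the 8 NTD precursors and 46 of the 173 control precursors (26.6%) doublets, against 12.6% of other NTD barcodes and 16.3% of other control barcodes. These calls were made with an expected rate of 15.24% in the NTD and 14.86% in the control library, and at an expected rate of 5% Scrublet called 0 barcodes in either library. The part of doublets in the results was not tested beyond leaving the called ones out, which gave 8 NTD and 127 control precursors (log2 -4.09 for the share).

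The label of these cells was checked first on the genes of the rule, whose levels are a description since they chose the members. Neb, which encodes the giant thin-filament protein nebulin (chr2:52136647-52378474, minus strand), was held by 7 of the 8 NTD and 140 of the 173 control precursors. Myog (chr1:134289989-134292548, plus strand) was held by 3 NTD and 74 control precursors, and Myh3, embryonic myosin heavy chain, by 3 NTD and 107 control precursors. The commitment factors were rarer. Myod1 (chr7:46376474-46379099, plus strand) was held by 1 NTD and 23 control precursors, and Myf5 (chr10:107482908-107486134, minus strand) by 0 NTD and 29 control precursors. Chrng was held by 5 NTD and 38 control precursors, Chrna1 by 1 NTD and 9 control precursors, and Msc, a repressor of the same protein family, by 1 NTD and 5 control precursors.

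Most members were therefore chosen by differentiation genes and not by commitment genes. The commonest pairs in the control library were Neb with Myh3 alone (47 barcodes) and Myog with Neb alone (23 barcodes). Barcodes with Myf5 or Myod1 and none of Myog, Neb and Myh3 numbered 0 in the NTD library and 5 in the control library. Those with Myog numbered 3 in the NTD and 74 in the control library, and those with Neb or Myh3 but no Myog 5 in the NTD and 94 in the control library. The share with Myog was 37.5% in NTD precursors (8.52 to 75.5) and 42.8% in control precursors (35.3 to 50.5), a difference of -5.27 points whose interval ran from -30.2 to 27.4.

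Much of the muscle RNA lay outside the members. In the control library the precursors held 27.9% of Neb UMIs, 32.2% of Myh3 UMIs and 21.0% of Myog UMIs. In the NTD library, where 487 barcodes held Neb, the precursors held 2.40% of Neb UMIs, 13.0% of Myh3 UMIs and 13.6% of Myog UMIs. Just outside the rule, 433 NTD and 1081 control barcodes held 1 of the 8 genes, that gene being Myod1, Myf5, Myog or Neb, and no barred gene. Another 171 NTD and 542 control barcodes without a barred gene held Msc, Chrna1, Chrng or Myh3 alone, and 3 NTD and 37 control barcodes met the gene count but held a barred gene.

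Sarcomere genes gave a check that leaves the 8 rule genes aside. A list of 39 genes of the contractile apparatus was summed in each barcode and divided by its total. The 173 control precursors fell into 2 clumps. In 72 the sarcomere genes took fewer than 20 of every 10000 UMIs, in 12 they took 20 to 40, in 14 they took 40 to 60, and in 75 they took 60 or more. Barcodes with 40 or more are called sarcomere-rich and the others sarcomere-poor. That line was drawn after the values were seen.

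The control library held 89 sarcomere-rich precursors, with a median of 110 sarcomere UMIs per 10000, and 84 sarcomere-poor precursors, with a median of 10.7. Control barcodes that held Myod1, Myf5, Myog or Neb as their single rule gene had a median of 9.36, so the poor precursors sat at the level of barcodes that failed the rule. Rich precursors held 1 to 34 UMIs of Ttn (titin, the spring of the sarcomere) with a median of 7, and all 89 held at least 1. Among the poor precursors 12 of 84 held Ttn, with a range of 0 to 10 and a median of 0. Of all other control barcodes 5.29% held Ttn.

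**Figure D2:**
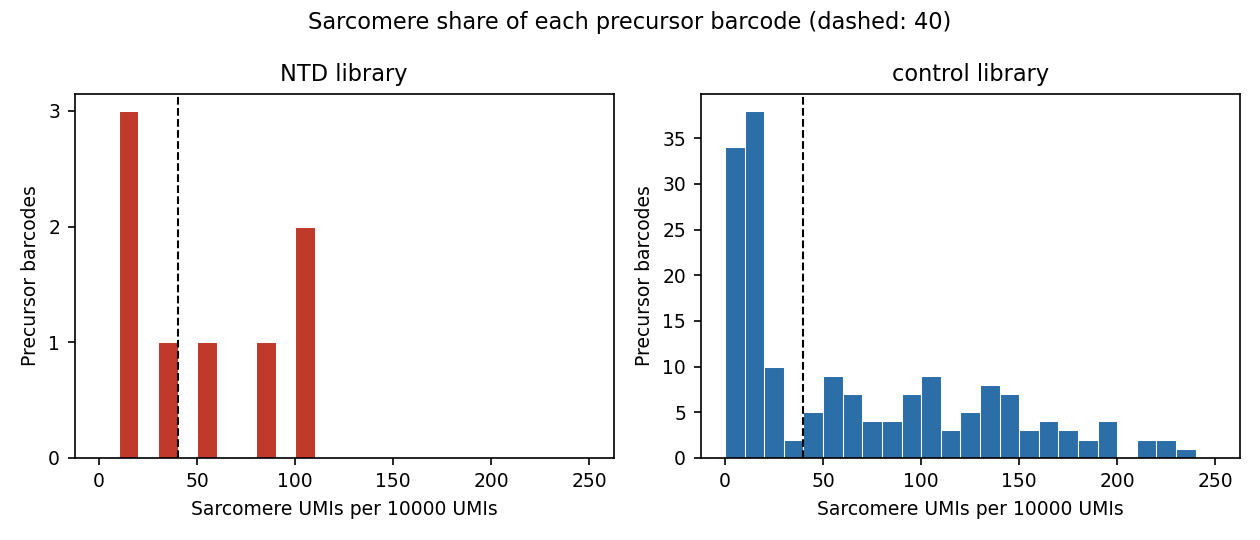
Number of precursor barcodes (y axis) by sarcomere UMIs per 10000 UMIs (x axis, bins of 10) in the NTD library (left) and the control library (right), with the dashed line at 40. The control precursors form a clump under 20 (72 barcodes) and a broad one at 60 and above (75 barcodes), and the 8 NTD precursors are spread over both.

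The 8 NTD precursors spread over the same range. Their sarcomere shares were 108, 101, 88.6, 54.7, 30.6, 14.0, 12.4 and 11.8 UMIs per 10000, and in that order they held 6, 8, 8, 3, 4, 0, 0 and 1 UMIs of Ttn. The top 3 held 3 or 4 rule genes, among them Myh3, and each of the other 5 held 2. The rich precursors thus numbered 4 in the NTD library (0.0210% of barcodes) and 89 in the control library (0.479%), a log2 ratio of -4.51 (-6.42 to -3.11). Past the same line lay another 31 NTD and 229 control barcodes that held no barred gene and did not meet the rule. All barcodes past the line without a barred gene were thus 35 in the NTD library (0.184%) and 318 in the control library (1.71%), a smaller log2 ratio of -3.22 (-3.77 to -2.71).

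Sarcomere content followed the number of rule genes. In the control library 33.3% of precursors with 2 of the 8 genes were sarcomere-rich, 82.2% of those with 3, and 100% of the 14 with 4 or more. Barcodes with a single rule gene and no barred gene were at or past the line in 0 of 604 cases in the NTD library and in 37 of 1623 in the control library (2.28%). Where that gene was Myod1, Myf5, Myog or Neb, they were 0 of 433 in the NTD library and 27 of 1081 in the control library (2.50%). The depth of a barcode also enters, since a deeper barcode shows more genes. The rich control precursors had a median of 3570 UMIs, the poor ones 4207.5 and the whole control library 2234.

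Genes outside the rule followed the same steps in control barcodes without a barred gene. With 0 rule genes, with 1 (Myod1, Myf5, Myog or Neb), and with 2, 3 and 4 or more, Ttn stood at 20.3, 32.8, 529, 1361 and 2093 CPM (UMIs of a gene per 1e6 UMIs of the group). Mef2c, a MADS-box factor that works with the myogenic factors, stood at 75.9, 87.7, 558, 1361 and 1827 CPM. Prdm1, a transcriptional repressor that sets slow fibre fate in zebrafish, stood at 5.93, 5.43, 93.0, 321 and 413 CPM. Each of these genes differed less between 0 and 1 rule genes than between 1 and 2. Top2a, a gene of dividing cells, stood at 572, 647, 503, 325 and 383 CPM and had no such step.

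**Figure D3:**
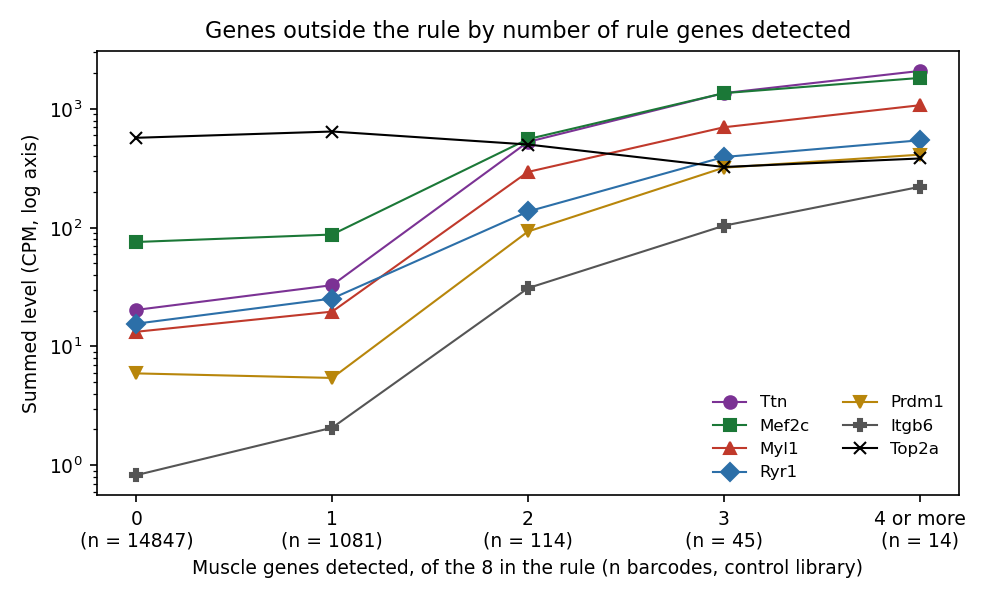
Summed level (y axis, CPM, log axis) of 7 genes outside the rule in control barcodes without a barred gene that held 0, 1, 2, 3 and 4 or more of the 8 rule genes (x axis), the single gene at 1 being Myod1, Myf5, Myog or Neb. The 6 muscle-enriched genes are low at 0 and 1 and higher at 2 and beyond, with Ttn at 32.8 and 529 CPM at 1 and 2 genes, while Top2a stands at 647 and 503 CPM at those steps.

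Across genes, the control precursors were set against all other control barcodes as a description, since members and others were divided by counts of the same barcodes. Of 18991 genes with at least 20 UMIs, 2187 (11.5%) were at least 2-fold higher in the precursors and 1034 (5.44%) at least 2-fold lower, with a median log2 ratio of 0.02. Contractile genes led, with 29 of 36 measured sarcomere genes higher, none lower and a median of 2.23. Their summed level was 4805 CPM in precursors and 1105 CPM in the others. In the NTD library the same comparison put 10508 of 18330 genes (57.3%) at least 2-fold higher and 1068 (5.83%) lower, over 23459 UMIs in its 8 precursors, in which 11634 of those genes had no UMI and 1 UMI stands at 42.6 CPM.

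Among the 15 genes with the highest ratio were Myl1, a fast skeletal myosin light chain (456 CPM in precursors, 14.8 CPM in others), Ttn (856 CPM in precursors and 33.0 in others) and Actn2, alpha-actinin of the Z-disc (234 CPM in precursors and 15.5 in others). Trim55, a muscle RING-finger ubiquitin ligase, stood at 129 CPM in precursors and 6.18 CPM in others. Signalling and surface genes were there too. Cd36, a fatty acid transporter, stood at 117 CPM in precursors and 3.93 in others, and Adgrg6, an adhesion receptor, at 178 CPM in precursors and 12.4 in others. Col19a1, a collagen made by embryonic muscle, stood at 216 CPM in precursors and 6.92 CPM in others.

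The other leading genes were Ablim3, an actin-binding LIM protein (131 CPM in precursors, 4.09 CPM in others), Arpp21 (375 CPM in precursors and 14.0 in others), Prdm1 (174 CPM in precursors and 7.30 in others), and Dync1i1, a cytoplasmic dynein chain (301 CPM in precursors and 12.4 in others). Clstn2, a calsyntenin, stood at 2396 CPM in precursors and 143 CPM in others. Fstl4 stood at 262 CPM in precursors and 17.2 in others and Arhgap20 at 148 CPM in precursors and 9.97 in others. The last of the 15, Gmnc, a gene of multiciliated cells, is no muscle gene, and all of its 108 UMIs in control precursors came from 1 barcode described below.

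Gm28653, which spans the miR-206 and miR-133b genes, was chosen for its place after its value was seen. It held 488 CPM in control precursors and 7.24 CPM in the other control barcodes (log2 6.07, 5.87 to 6.28). In the NTD library it held 12 UMIs in the 8 precursors (512 CPM) and 8 UMIs in all 19048 other barcodes (0.144 CPM). In the control library 83 of 89 rich and 12 of 84 poor precursors held it. The files count the long gene and not the mature microRNAs, whose levels were not measured here.

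Past the sarcomere, machinery of excitation and the membrane was higher as well. Over all genes 11.5% were at least 2-fold higher in control precursors and 5.44% lower. Of 17 measured calcium-handling genes 16 were at least 2-fold higher in control precursors and none lower, with a median of 2.54 and summed levels of 995 CPM in precursors and 296 in others. Ryr1, the calcium release channel of skeletal muscle, stood at 233 CPM in precursors and 17.6 CPM in others. Of 11 genes of the dystrophin complex 6 were higher, and Dmd itself stood at 500.3 CPM in precursors and 88.3 CPM in others. Of 8 measured genes of the nerve-muscle junction 5 were higher, among them the receptor subunit Chrnb1 (48.3 CPM in precursors and 2.39 in others).

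Cofactor and fusion genes differed less, again beside 11.5% of all genes at least 2-fold higher and 5.44% lower. Of 17 myogenic cofactors 8 were at least 2-fold higher in control precursors and none lower, with a median of 0.76. Mef2c led them at 856 CPM in precursors and 87.0 CPM in others. Of 15 adhesion and fusion genes 6 were higher and none lower, among them Cdh15, M-cadherin (38.4 CPM in precursors and 2.95 in others). The fusion proteins Mymk and Mymx were near the floor, with 0 UMIs in the 8 NTD precursors, and 10 UMIs of Mymk and 3 of Mymx in the 173 control precursors.

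Earlier markers differed little. Of 15 premyogenic progenitor genes 2 were at least 2-fold higher in control precursors and none lower, beside 11.5% higher over all genes, with a summed log2 ratio of 0.30 (0.21 to 0.40) and summed levels of 942 CPM in precursors and 763 CPM in others. Pax3 stood at 253 CPM in precursors and 246 CPM in others, and Pax7 at 36.2 CPM in precursors and 37.4 in others. Of 8 measured head muscle genes none were higher and 2 were lower, beside 5.44% lower over all genes. Their summed log2 ratio was -0.48 (-0.66 to -0.30). Posterior Hox genes, which mark trunk levels, summed to 644 CPM in control precursors and 727 CPM in the other control barcodes.

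Markers of other cell types were present in the precursors at levels near those of the library. Neuron markers summed to 870 CPM in control precursors and 1061 CPM in others, mesenchyme markers to 484 CPM in precursors and 648 in others, and erythroid haemoglobins to 10839 CPM in precursors and 12835 in others. Endothelial markers, of which Cdh5 is barred by the rule, summed to 76.8 CPM in precursors and 163 CPM in others. Cardiac markers other than the barred genes summed to 366 CPM in precursors and 119 CPM in others. Actn2 and Tnnt2, which embryonic skeletal muscle also uses, were the 2 of its 6 measured genes that were at least 2-fold higher. Over all genes 11.5% were at least 2-fold higher. The part of these markers in the results was not tested.

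Split by sarcomere content, the control precursors separated further. Of 8323 genes measured, 595 (7.15%) were at least 2-fold higher in rich than in poor precursors and 962 (11.6%) at least 2-fold lower, with a median log2 ratio of -0.15. The sarcomere list defined the split, so its own ratio (26 of 27 measured genes higher, summed log2 3.46) is a description. Summed UMIs were 344892 in rich and 566594 in poor precursors.

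Genes outside that list followed it, beside 7.15% of all genes at least 2-fold higher and 11.6% lower. Calcium-handling genes were higher for 9 of 10 measured and lower for none, at 1989 CPM in rich and 390 CPM in poor precursors (log2 2.35, 2.13 to 2.58). Trdn, the triadin of the calcium release complex, held 55 UMIs in rich and 1 in poor precursors, and Ryr1 stood at 519 CPM in rich and 58.2 in poor. The dystrophin complex was higher for 5 of 8 genes and lower for none (log2 1.77), with Dmd at 1096 CPM in rich and 138 CPM in poor precursors. Genes of the nerve-muscle junction were higher for 3 of 5 (log2 1.27).

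Among the 10 genes with the highest ratio, 4 had no UMI in the poor precursors. Itgb6, an integrin beta chain, held 58 UMIs in rich precursors and 0 in poor ones. It was 31.8-fold higher when the poor group was set at the floor of 3 UMIs, and its log2 interval started at 4.64. Srpk3, a muscle-specific kinase of splicing factors, held 43 UMIs in rich and 0 in poor. Atcayos held 53 UMIs in rich and 0 in poor, and Unc45bos, a transcript antisense to the myosin chaperone Unc45b, 49 UMIs in rich and 0 in poor. Reads of Unc45bos and its partner can be told apart only if strand was used in counting, which the sources used here do not state.

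Others of those 10 were muscle genes or a collagen. Ldb3, a Z-disc protein, held 82 UMIs in rich and 2 in poor precursors. Palmd, palmdelphin, held 66 UMIs in rich and 1 in poor, and Tecrl 48 in rich and 1 in poor. Col19a1 stood at 554 CPM in rich and 10.6 CPM in poor precursors. Clstn2 (5822 CPM in rich and 311 in poor), Dync1i1 (757 CPM in rich and 22.9 in poor) and Mef2c (2044 CPM in rich and 132 in poor) showed the same pattern, with Mef2c held by 84 of 89 rich and 24 of 84 poor precursors.

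Imprinted growth genes differed as a group, beside 7.15% of all genes at least 2-fold higher and 11.6% lower. The Igf axis and imprinted growth list summed to 20111 CPM in rich and 6198 CPM in poor precursors (log2 1.70, 1.64 to 1.76), with 11 of 20 genes at least 2-fold higher, none lower and a median of 1.03. Meg3, the long RNA of an imprinted domain on chromosome 12, carried most of the list's UMIs in rich precursors. It held 1 to 140 UMIs per rich precursor (median 38), and 0 to 109 per poor precursor (median 4.5), or 11183 CPM in rich and 1597 in poor. The linked RNAs Rian (1606 CPM in rich and 265 in poor) and Mirg (342 CPM in rich and 54.7 in poor) and the ligand Dlk1 (583 CPM in rich and 238 in poor) were also higher in the rich precursors.

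Other genes of the list were higher too. Igf2r, the receptor that clears Igf2, stood at 1342 CPM in rich and 411 CPM in poor precursors, and Cdkn1c, an inhibitor of the cell cycle, at 693 CPM in rich and 327 in poor. Igf2 itself stood at 188 CPM in rich and 68.8 CPM in poor precursors. Airn, which overlaps Igf2r on the other strand and is named after its values were seen, stood at 2494 CPM in rich and 699 in poor, and without a stated use of strand the pair cannot be told apart.

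Summed cycle genes were lower in rich precursors. Genes of the G2 and M phases summed to 2096 CPM in rich and 2813 CPM in poor precursors (log2 -0.42, -0.55 to -0.30), with 4 of 20 at least 2-fold lower, beside 11.6% of all genes, and none higher. Genes of the S phase had a log2 ratio of -0.52 (-0.69 to -0.35). Genes of cell cycle exit had 0.73 (0.56 to 0.90), with Cdkn1a at 89.9 CPM in rich and 14.1 CPM in poor precursors, and Rb1, the retinoblastoma protein, at 368 CPM in rich and 125 in poor.

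At an equal depth of 1500 UMIs per barcode, 32 of 88 rich precursors (36.4%, 26.4 to 47.3) and 49 of 81 poor precursors (60.5%, 49.0 to 71.2) held a UMI of Mki67 or Top2a. Other control barcodes held one in 58.4% and control neurons in 49.6%, also thinned. Without thinning the shares were 58.4% of rich and 78.6% of poor precursors. Thinning left out 1 rich and 3 poor precursors. Myog-positive precursors (49.3%) and those with Neb or Myh3 but no Myog (47.3%) were close to each other after thinning. Of the 8 NTD precursors 1 held such a UMI after thinning and 3 before. Barcodes of the neuron class also held these genes. Whether that class holds dividing cells or doublets was not tested, so a UMI of these genes is not read as division.

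**Figure D4:**
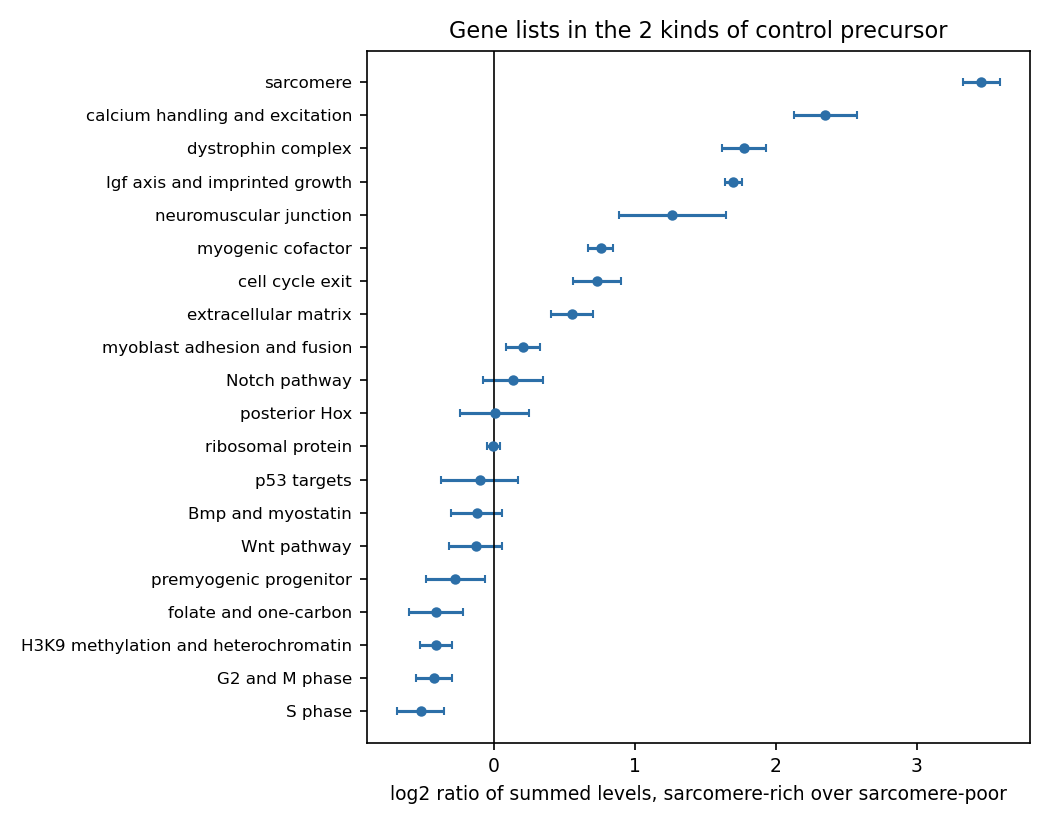
Log2 ratio of the summed level of each gene list with at least 5 measured genes (x axis), sarcomere-rich over sarcomere-poor control precursors, with 95% counting intervals as bars. Sarcomere, calcium, dystrophin and Igf lists lie between 1.70 and 3.46, ribosomal and posterior Hox lists near 0, and the S phase list at -0.52.

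Markers of neural and mesenchymal cells were lower in rich precursors. Neuron markers summed to 568 CPM in rich and 1054 CPM in poor precursors (log2 -0.89), and mesenchyme markers to 316 CPM in rich and 586 in poor (log2 -0.89). Pax3, the somite and neural tube factor, stood at 148 CPM in rich precursors (17 of 89 barcodes) and 318 CPM in poor ones (40 of 84). Erythroid haemoglobins also ran lower, at 8620 CPM in rich and 12190.4 in poor. Cardiac markers, among them the sarcomere genes Actn2 and Tnnt2, summed to 800.3 CPM in rich and 102 in poor, and smooth muscle markers to 420.4 CPM in rich and 83.0 in poor. The part of these markers in the results was not tested. Ribosomal protein genes had a log2 ratio of -0.00 (-0.05 to 0.05), and of 0.12 (0.07 to 0.17) without the deepest precursor described next.

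The 10 genes with the lowest ratio were Gmnc, Dkk2, Lrrc4c, Xist, Lrp1b, Nrg3, Sgcz, Galntl6, Syt1 and Hpse2. They include the synaptic vesicle protein Syt1 (23.2 CPM in rich, 191 CPM in poor precursors) and the growth factor Nrg3 (31.9 CPM in rich, 360.0 CPM in poor). One barcode decided several of them. It held 53651 UMIs, 5.89% of all control precursor UMIs, met the rule by Myod1 and Chrng, held no Ttn and was called a doublet. Without it Gmnc had 0 UMIs in control precursors, and Lrrc4c stood at 121 CPM in poor precursors in place of 401. Dkk2 stood at 97.5 in place of 284, Lrp1b at 27.3 in place of 148 and Sgcz at 127 in place of 390.1.

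The poor precursors lay close to the rest of the library. Their sarcomere genes summed to 1006 CPM, against 1105 CPM in all other control barcodes (log2 -0.14, -0.26 to -0.02). Neuron markers summed to 1054 CPM in poor precursors and 1061 CPM in others, and mesenchyme markers to 586 CPM in poor precursors and 648 CPM in others. Of 18944 genes 2357 (12.4%) were at least 2-fold higher in poor precursors and 933 (4.93%) lower, with 6 of 16 measured calcium-handling genes among the higher. Scrublet called 30 of the 84 poor precursors (35.7%) and 16 of the 89 rich ones (18.0%) doublets, and none of either at the expected rate of 5%. The sarcomere data of the poor precursors thus go against the label of muscle cell, so they are called by their sarcomere content and given no other cell type.

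Rich precursors were next set against the classes most like them. Against the 100 cardiac-like control barcodes, 533 of 8042 genes (6.63%) were at least 2-fold higher and 828 (10.3%) lower. The sarcomere list, which defined the rich precursors, summed to 11047 CPM there and 4911 CPM in cardiac-like barcodes. Highest in the rich precursors were Kcnk13, Ano5, Ablim3, Mylk4 and Arpp21. Among genes with a known skeletal role, Atp2a1, the fast calcium pump, held 51 UMIs in rich precursors and 3 in cardiac-like barcodes, and Car3, a muscle carbonic anhydrase, 40 in rich precursors and 2 in cardiac-like barcodes. Prdm1 held 151 UMIs in rich precursors and 10 in cardiac-like barcodes.

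Heart genes marked the other side. Ryr2, the cardiac calcium release channel, held 2 UMIs in rich precursors and 458 in cardiac-like barcodes, and Tbx20, a cardiac T-box factor, 0 in rich precursors and 56 in cardiac-like barcodes. Gata4 held 6 UMIs in rich precursors and 125 in cardiac-like barcodes, and Nebl, the cardiac relative of nebulin, 3 in rich precursors and 145 in cardiac-like barcodes. None of these 4 genes is in the rule of the precursors. Myh6 and Nkx2-5 define both classes and are not compared.

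Against 2835 mesenchyme-like control barcodes, 1623 of 15150 genes (10.7%) were at least 2-fold higher in rich precursors and 2154 (14.2%) lower. Myom3, an M-band protein, held 82 UMIs in rich precursors and 5 in mesenchyme-like barcodes, and Itgb6 58 in rich precursors and 6 in mesenchyme-like barcodes. Lower genes included Pdgfra (29.0 CPM in rich precursors and 248 in mesenchyme-like barcodes) and Prrx1 (75.4 CPM in rich precursors and 531 in mesenchyme-like barcodes), which are part of the definition of the mesenchyme-like class. Of 20 extracellular matrix genes 8 were lower and 1 was higher.

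Precursors with Neb or Myh3 but no Myog were close to those with Myog. Of 8041 genes 179 (2.23%) were at least 2-fold higher and 141 (1.75%) lower, and sarcomere genes summed to 5238 CPM without Myog and 4930 CPM with it (log2 0.09, -0.00 to 0.18). No sarcomere gene, of 27 measured, and no calcium-handling gene, of 10, passed 2-fold in either direction.

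The Myog-positive precursors differed from the 5 with Myf5 or Myod1 only. Of 5285 genes 963 (18.2%) were at least 2-fold higher and 408 (7.72%) lower in the 74 Myog-positive precursors. Ttn held 321 UMIs in the Myog-positive precursors and 0 in the 5, and Mef2c 308 in the Myog-positive precursors and 1 in the 5. Tnnc1, slow troponin C (89 UMIs in Myog-positive precursors), Col19a1 (93 UMIs) and Prdm1 (69 UMIs) had 0 UMIs in the 5. Hmcn1, Cped1, Gfra1, Adgrg6 and Galnt17 also had no UMI in the 5. The 10 lowest were Gmnc, Cdc20b, Lrp1b, Lrrc4c, Sgcz, Dkk2, Ptchd4, Anxa3, Glis3 and Ppp2r2b, and in each the deepest barcode held nearly all UMIs of the 5, since without it they had 0 to 3 UMIs left. Without that barcode, which leaves 4 barcodes and 11545 UMIs, 739 genes were higher and 1128 lower of 4770.

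Within precursors the NTD library was set against the control library. The NTD side had 8 barcodes and 23459 UMIs, and the control side 173 barcodes and 911486 UMIs. Both sides pool sarcomere-rich and sarcomere-poor precursors, 4 rich and 4 poor in NTD and 89 rich and 84 poor in control. Poor precursors, whose sarcomere data go against the muscle label, held 566594 of the control UMIs. How far this mixture enters the ratios below was not tested. A gene with 3 UMIs in the NTD precursors stands at 128 CPM, so a gene at 0 there may lie anywhere below that. Of 8416 genes 1773 (21.1%) were at least 2-fold higher in NTD precursors and 1448 (17.2%) lower, with a median of -0.03. Of the higher genes 465 rested on 1 NTD UMI, 464 on 2 and 279 on 3, and of the lower genes 1171 had no NTD UMI. With TMM scaling the split was 737 higher and 2586 lower, with a median of -0.51. In all other barcodes 301 of 20298 genes (1.48%) were at least 2-fold higher in NTD and 1967 (9.69%) at least 2-fold lower.

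The summed sarcomere, calcium-handling and cofactor lists had NTD over control ratios whose intervals held 0, which does not show that they are alike. Sarcomere genes summed to 5669 CPM in NTD precursors and 4805 CPM in control precursors (log2 0.24, -0.02 to 0.49), and to 829 CPM in NTD and 1105 CPM in control barcodes outside them. The list median was 0.39, and -0.095 with TMM scaling. Calcium-handling genes summed to 1066 CPM in NTD and 995 CPM in control precursors (log2 0.10, -0.54 to 0.67), and myogenic cofactors to 4732 CPM in NTD and 4655 in control (log2 0.02, -0.26 to 0.30). The premyogenic progenitor list, which comes earlier in the lineage, was lower, at 6 UMIs in NTD precursors (256 CPM) and 859 UMIs in control precursors (942 CPM), a log2 ratio of -1.88 (-3.33 to -0.75). All other control barcodes held this list at 763 CPM, so in control precursors it was near the level of the library. Without the deepest barcode it stood at 835 CPM in rich and 1072 CPM in poor control precursors. The part of that mixture in the ratio was not tested.

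Single muscle genes carried few UMIs in the NTD precursors. Ttn held 30 UMIs (1279 CPM), against 780 in control precursors (856 CPM), and Mef2c 31 UMIs in NTD precursors (1321 CPM) against 780 in control precursors (856 CPM). Myl1 held 17 UMIs in NTD precursors (725 CPM) and 416 in control precursors (456 CPM). Tnnt3, fast troponin T, held 4 UMIs in NTD and 25 in control precursors (log2 2.78, 0.65 to 4.17), and Klhl31 3 in NTD and 18 in control (log2 2.88, 0.29 to 4.47). Ldb3 and Acta2 held 0 UMIs in NTD precursors and 84 each in control precursors (92.2 CPM). That level is below the NTD floor of 128 CPM, so no difference can be read.

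The summed growth genes were lower in NTD barcodes, in precursors and outside them. The Igf axis and imprinted growth list summed to 7545 CPM in NTD and 11463 CPM in control precursors (log2 -0.60, -0.83 to -0.39), and to 3462 CPM in NTD and 5567 CPM in control barcodes outside them (log2 -0.69). Meg3 alone took 2302 of the list's 7545 CPM in NTD and 5224 of its 11463 CPM in control precursors (log2 -1.17, -1.60 to -0.80). The summed ratio thus leans on 1 gene, and it was not computed without Meg3. In barcodes outside the precursors Meg3 stood at 560.0 CPM in NTD and 1243 CPM in control. Igf2r stood at 554 CPM in NTD and 764 CPM in control precursors. The list median in precursors was -0.20, and turned to 0.11 with at least 3 of the 8 genes and to 0.32 where Myod1, Myf5 or Myog was required. NTD precursors held 54 Meg3 UMIs, from 0 to 17 per barcode with a median of 3.5.

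Ribosomal protein genes summed to 32013 CPM in NTD and 15782 CPM in control precursors (log2 1.02, 0.91 to 1.13), with 13 of 18 at least 2-fold higher, beside 21.1% of all genes, and none lower. Their median was 1.08, and 0.60 with TMM scaling. Rpl37 stood at 1364 CPM in NTD and 477 CPM in control precursors, Rps6 at 1194 CPM in NTD and 438 in control, and Rps12 at 2813 CPM in NTD and 1088 in control. In all other barcodes the list summed to 34361 CPM in NTD and 21456 in control (log2 0.68). The direction was the same in precursors and in the rest of the library.

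Posterior Hox genes, summed over 31 genes, held 0 UMIs in NTD precursors and 587 UMIs (644 CPM) in control precursors, where 128 CPM is the floor of the NTD sum. In all other barcodes they stood at 34.3 CPM in NTD and 727 CPM in control. There 30 of 30 measured genes were at least 2-fold lower, beside 9.69% of all genes. The trunk and limb muscle list held 1 UMI in NTD precursors (42.6 CPM) and stood at 504 CPM in control precursors. All other control barcodes held it at 476 CPM, so in control precursors the list was near the level of the library. Pax3, which is on that list, held 0 UMIs in the 8 NTD precursors and 231 in the control precursors, and stood at 202 CPM in the other NTD and 246 CPM in the other control barcodes.

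The summed matrix genes were lower in NTD precursors, while their median depended on the rule, at -0.57, and 0.60 where Myod1, Myf5 or Myog was required. Extracellular matrix genes summed to 980.4 CPM in NTD and 1692 CPM in control precursors (log2 -0.79, -1.45 to -0.20), and to 864 CPM in the other NTD and 1457 CPM in the other control barcodes (log2 -0.75). Col3a1 held 0 UMIs in NTD and 102 in control precursors (112 CPM), and Col1a1 0 in NTD and 61 in control (66.9 CPM). Both control levels are below the NTD floor of 128 CPM, so no difference can be read for either gene. Marker sums of other cell types differed too, with mesenchyme markers at 85.3 CPM in NTD and 484 CPM in control precursors, neural progenitor markers at 938 CPM in NTD and 386 in control, and neuron markers at 895 CPM in NTD and 870 in control. Smooth muscle markers held 0 UMIs in NTD precursors and stood at 211 CPM in control precursors. The part of these markers in the results was not tested.

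The next lists concern the pathway that MTX blocks and chromatin. Folate and one-carbon genes summed to 1449 CPM in NTD and 1141 CPM in control precursors (log2 0.35, -0.19 to 0.84). Genes of H3K9 methylation and heterochromatin summed to 2387 CPM in NTD and 3209 in control (log2 -0.43, -0.84 to -0.05), with 5 of 21 at least 2-fold lower, beside 17.2% of all genes, and none higher. Their median of -0.43 became 0.83 after thinning, where 7 of these genes were still measured. Among them Ehmt1, an H3K9 methyltransferase, held 2 UMIs in NTD precursors (85.3 CPM) and 348 in control precursors (382 CPM). Its log2 ratio was -1.84 (-5.21 to -0.30). Alkbh1, a demethylase proposed to act on DNA N6-methyladenine, held 1 UMI in NTD precursors (42.6 CPM) and 175 in control precursors (192 CPM). Its log2 ratio of -1.59 had an interval that held 0 (-7.48 to 0.33). Alkbh1 stood at 123 CPM in the other NTD and 185 CPM in the other control barcodes.

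The 10 genes highest in NTD over control precursors rested on 4 to 22 NTD UMIs. Unc13c held 12 UMIs in NTD and 17 in control precursors, Zfp804b 10 in NTD and 48 in control, Sfta3-ps 10 in NTD and 24 in control, and Otx2, a homeobox factor of the forebrain and midbrain, 5 in NTD and 18 in control. Id4, an inhibitor of helix-loop-helix factors, held 4 in NTD and 20 in control precursors, Crtac1 4 in NTD and 21 in control, Zc3hav1l 4 in NTD and 16 in control, and Lmcd1 5 in NTD and 19 in control. In all other barcodes Otx2 (log2 1.32) and Id4 (1.11) were also higher in the NTD library, while Unc13c (-0.73), Lmcd1 (-1.20) and Crtac1 (-0.93) were lower.

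Among the 10 lowest were Fbxl7, Zfhx4, Kif26b, Prtg, Lrrc4c, Nav3, Pax3 and Dlc1, each with 0 NTD UMIs, and Ank3, an ankyrin, with 1 NTD and 658 control UMIs. Fbxl7, an F-box protein, held 653 control UMIs. It was 5.60-fold lower in NTD precursors when set at the floor of 3 UMIs, and its log2 interval ended at -2.18. In all other barcodes it stood at 404 CPM in NTD and 780 CPM in control. Zfhx4 held 390 control UMIs and was 3.35-fold lower at the same floor, with an interval ending at -1.44. Dlc1 held 222 and was 1.90-fold lower, with an interval ending at -0.62. Lrrc4c rested on 1 barcode. Its 235 control UMIs (258 CPM) were 70 (81.6 CPM) without the deepest control precursor, below the NTD floor of 128 CPM.

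Xist and Tsix, RNAs of the X inactivation centre, were also among the 10 highest. Xist held 22 UMIs in NTD precursors (938 CPM) and 72 in control precursors (79.0 CPM), and 909 CPM in the other NTD and 90.9 CPM in the other control barcodes. Of the 8 NTD precursors 4 held Xist and no Y-linked RNA (Ddx3y, Eif2s3y, Kdm5d or Uty), 2 held Y-linked RNA only, 1 held both and 1 neither. Of the 173 control precursors 2 held Xist only, 118 Y-linked RNA only, 20 both and 33 neither. Of the 89 rich control precursors 0 held Xist only and 70 Y-linked RNA only. Of all other barcodes 8211 NTD and 675 control barcodes held Xist only, and 3403 NTD and 10023 control barcodes Y-linked RNA only. The libraries thus differed in the share of barcodes with Y-linked RNA, and the sex of the embryos and the group cannot be told apart.

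**Figure D5:**
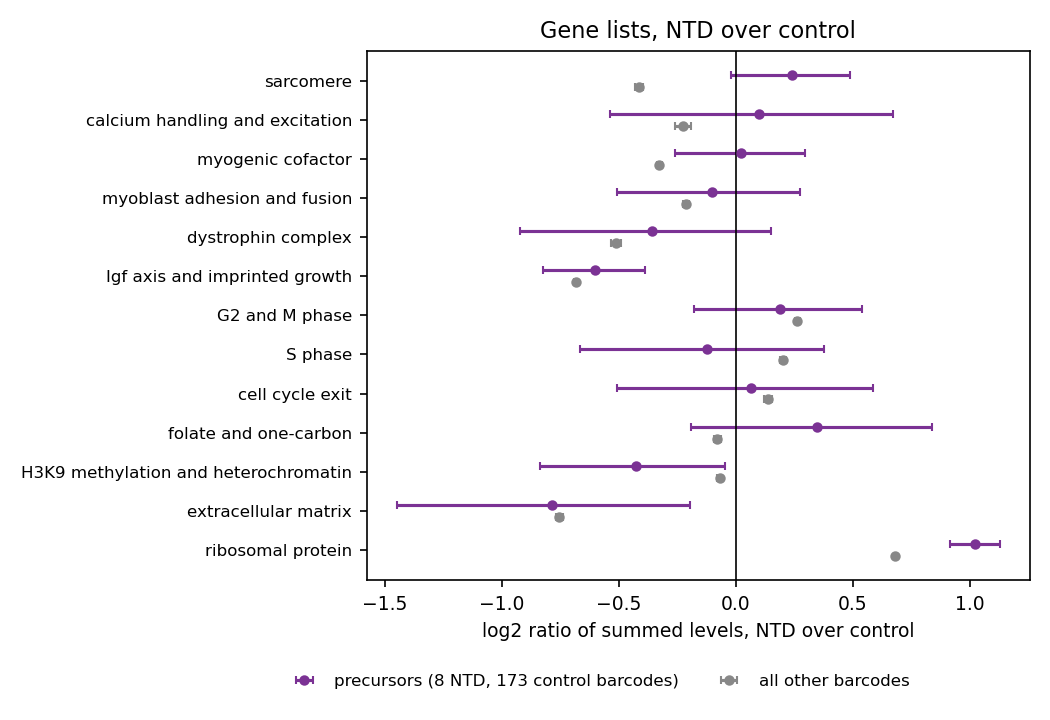
Log2 ratio of the summed level of 13 gene lists (x axis), NTD over control, in precursors (purple, 8 NTD and 173 control barcodes) and in all other barcodes (grey), with 95% counting intervals as bars. The intervals of the 5 muscle lists, from sarcomere to dystrophin complex, hold 0 in precursors, ribosomal genes at 1.02 in precursors and 0.68 in others, and the Igf list at -0.60 in precursors and -0.69 in others.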

How the data were processed

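Single-cell RNA was counted in mouse embryonic brain tissue, in 1 NTD library (19056 barcodes, 55524355 UMIs) and 1 control library (18572 barcodes, 50741121 UMIs). The deposited values are raw counts of UMIs for each gene in each barcode. Cell Ranger 7.0.1 is named in the matrix files, so the counts are its output per the file headers, and STAR and mm10 are listed in the submitters' processing notes. Annotation, intron and strand settings are stated in none of the sources used here. No step beyond this was recorded, and the files hold no cell types.

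All barcodes were kept, doublets included. For each library, the UMIs of a group's barcodes were added up per gene and expressed as CPM of their total. Genes with at least 20 UMIs over both groups were measured, with 0.5 counts added before log2 ratios, and counted when at least 2-fold apart. The 12 genes of the rule were left out of gene counts. Intervals are 95% and cover counting error only: exact Poisson for CPM, Clopper-Pearson for shares, conditional binomial for ratios and Newcombe for differences of shares. No test across samples exists with 1 library per group, and barcodes are not replicates. The floor for a count of 0 is 3 UMIs over the group. Scanpy 1.11.5 ran Scrublet and edgeR 4.0.16 gave TMM factors. The scripts were tested on simulated data. Gene spans came from GENCODE M21, matched for 32158 of 32285 IDs (99.6%).

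The members, the 25 gene lists and 13 marker classes were chosen with earlier results of these data known. Genes were named by rule: the genes that define the precursors, those with the highest or lowest ratios of at least 100 CPM, up to 3 members of each list and Alkbh1, leaving out predicted models, haemoglobins and mitochondrial genes. Some genes that the rule names are not reported here. Other names were chosen after their values were seen, as were the sarcomere line at 40 per 10000 and the comparisons built on it. Alternatives were TMM scaling, called doublets left out, stricter or looser rules, thinning to 1500 UMIs, other UMI minimums, a pseudocount of 1 and leaving out the deepest barcode.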

Additional observations from a re-analysis of the deposited data

How the results depend on the processing

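No paired analysis was possible because each group has 1 library, and no library could be left out. Of 150 values under alternative settings 101 stayed within the set margin (1.5 times for counts, the counting interval for others) and 49 did not. No median or ratio of at least 2-fold changed sign, but only the ribosomal median (1.08) and the precursor share ratio (log2 -4.47) were that large. Of 69 list medians under alternatives 15 had the other sign, in 8 of 10 lists. The log2 ratio of the precursor share lay between -5.12 and -4.09 under every alternative run. The cause of each change below was not tested.

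The number of genes measured changed with the setting, so each count is given beside it. NTD over control within precursors counted 1773 genes higher and 1448 lower of 8416. It counted 737 higher and 2586 lower of 8416 with TMM scaling, and 872 higher of 5541 without called doublets. With at least 3 of the 8 genes 873 were higher and 787 lower of 3835. Where Myod1, Myf5 or Myog was required 597 were lower of 6285. After thinning 320 were higher and 325 lower of 1502. At 50 UMIs 659 of 4600 were higher, and at 1 UMI 9585 of 18063. With a pseudocount of 1, 463 of 8416 were lower. Precursors over all other control barcodes counted 1679 lower of 18360 without called doublets. They counted 3981 higher and 1751 lower of 18991 with at least 3 genes, and 1304 higher of 16837 at 50 UMIs. The same comparison in the NTD library, of 18330 genes, counted 10508 higher and 1068 lower, 2202 lower with TMM scaling and 615 lower with at least 3 genes. Myog-positive over Myf5 or Myod1 only counted 641 higher of 2768 without called doublets, and 138 higher and 653 lower of 1970 with at least 3 genes. It counted 323 higher and 102 lower of 2085 at 50 UMIs. Without the deepest barcode, a setting chosen after seeing the data, it counted 1128 lower of 4770. Rich over poor counted 311 higher and 421 lower of 4506 at 50 UMIs.

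List medians of NTD over control in precursors were 0.39 for sarcomere, -0.01 for cofactors, -0.20 for Igf and imprinted growth, 0.53 for G2 and M, -0.03 for S phase, -0.43 for H3K9, 1.08 for ribosomal, -0.70 for posterior Hox and -0.57 for matrix genes. With TMM scaling they were -0.095 for sarcomere, -0.49 for cofactors, -0.68 for Igf and imprinted growth, 0.045 for G2 and M, -0.91 for H3K9 and 0.60 for ribosomal genes. Without called doublets they were -0.19 for sarcomere, -0.54 for Igf and 0.94 for ribosomal genes. After thinning they were -0.23 for sarcomere, -0.85 for Igf, -0.027 for G2 and M, 0.83 for H3K9 and 0.88 for ribosomal genes. With at least 3 genes the Igf median was 0.11. The thinned H3K9 median covered 7 measured genes, against 21 in the main run. Where Myod1, Myf5 or Myog was required they were 0.55 for cofactors, 0.42 for posterior Hox, 0.32 for Igf, 0.48 for S phase, 0.89 for ribosomal and 0.60 for matrix genes. Posterior Hox genes held no UMI in NTD precursors, so their medians and the sign of those medians come from the 0.5 counts added. The Myog-positive share then differed by 27.5 points (-29.2 to 36.8), on 3 of 3 NTD and 74 of 102 control precursors. Myog is itself among the genes required there. Thinned cycling shares were 49.3% with Myog and 47.3% without it. The NTD precursors hold 23459 UMIs, where the floor of 3 UMIs is 128 CPM.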
